A study of Mus musculus with 25 samples.

Results

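The proteasome genes described here are the 49 genes, of 23351 in the table, whose symbol starts with Psm followed by a letter from a to g and a digit. They were measured by RNA-seq in 25 libraries of mouse oligodendrocyte precursor cells (OPC), the dividing glia that give rise to myelinating cells, cut from brain sections by laser capture microdissection. The labels name 10 Control libraries, 8 from Day 5 and 7 from Day 15, the days being those after white matter stroke. The sources used here do not give the strain, sex and age of the animals, how the stroke was made, the control procedure or how captured cells were recognised. Levels are deposited RPKM, a unit per length of the gene. The lengths used are not stated, which limits comparisons of levels between genes. Differences between groups are on the log2(RPKM + 1) scale, which understates changes of low genes.

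The proteasome is the large protease that degrades proteins marked with ubiquitin. Its barrel-shaped core (20S) has outer rings of alpha subunits and inner rings of beta subunits, and in the standard form Psmb5, Psmb6 and Psmb7 carry the catalytic sites. Under interferon and in immune cells the subunits Psmb8, Psmb9 and Psmb10 take their places and form the immunoproteasome, which favours peptides for MHC class I presentation. A cap (19S) of ATPases encoded by the Psmc genes and of further subunits encoded by the Psmd genes recognises and unfolds substrates, Psme1 and Psme2 encode an interferon-induced activator ring, and the Psmg genes encode chaperones of assembly. Microglia and macrophages, the phagocytes of injured brain, are known to carry the immune forms.

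Proteasome transcripts were low in these amplified libraries. Of the 49 genes, 24 averaged at least 1 RPKM over the 25 libraries, and 3 had a median of at least 1 RPKM: Psmd1, Psme1 and Psme4. The filter for testing, 7 or more libraries at an RPKM of 1 or more, was passed by 19 of 49 proteasome genes (38.8%) and by 4319 of all 23351 genes (18.5%). The other 30 were left out of the main tests of single genes and entered a fit without the filter. All 3 standard catalytic subunits, the immune subunit Psmb10, all 7 assembly factors and Psmc3ip were among them. The tests of immune against standard subunits below also use Psmb5, Psmb6, Psmb7 and Psmb10, so each rests on at least 1 gene below the filter. Psmc3ip matches the symbol rule and is a recombination factor, not a subunit.

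By role, the widest detection was among activators. Psme4, which encodes the activator PA200, and Psme1 each reached 1 RPKM in 16 libraries, with means of 3.38 and 2.31 RPKM. Psmd1, a scaffold subunit of the cap, did so in 13 libraries, and Psmd14, the deubiquitinase that releases ubiquitin from substrates, in 12. In the alpha ring Psma4 had the highest mean, 1.87 RPKM, and among the structural beta subunits Psmb4, 1.77 RPKM. Among the cap ATPases Psmc6 led with 3.39 RPKM, and among assembly factors Psmd10, the oncoprotein gankyrin, with 1.62 RPKM. Psma8 and Psmb11, forms of the testis and the thymus, reached 1 RPKM in 0 libraries, as did Psmg1, Psmg2, Psmg3 and Psmg4.

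Some of these means rested on a single library. Psmb3, a structural beta subunit, was at 22.5 RPKM in Day 5 replicate 4, which was 80.4% of its sum over all libraries, and its next value was 1.35 RPKM. Psmb9 was at 66.1 RPKM in Control replicate 5 (77.5% of its sum), Psme2 at 14.5 RPKM in Day 5 replicate 6 (75.5%), Psmd10 at 29.9 RPKM (73.7%), Psmc6 at 57.9 RPKM (68.3%) and Psmd11, a cap subunit, at 41.1 RPKM (62.3%), the last 3 in Day 5 replicate 1. A single library held over 50% of the sum for 13 of 49 proteasome genes (26.5%) and for 38.6% of all 22610 genes above 0, and for 2 of the 19 tested ones (10.5%) beside 20.7% of all tested genes. The median share held by the highest library was 24.4% for the 19 tested proteasome genes and 31.2% for all 4319 tested genes.

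**Figure D1:**
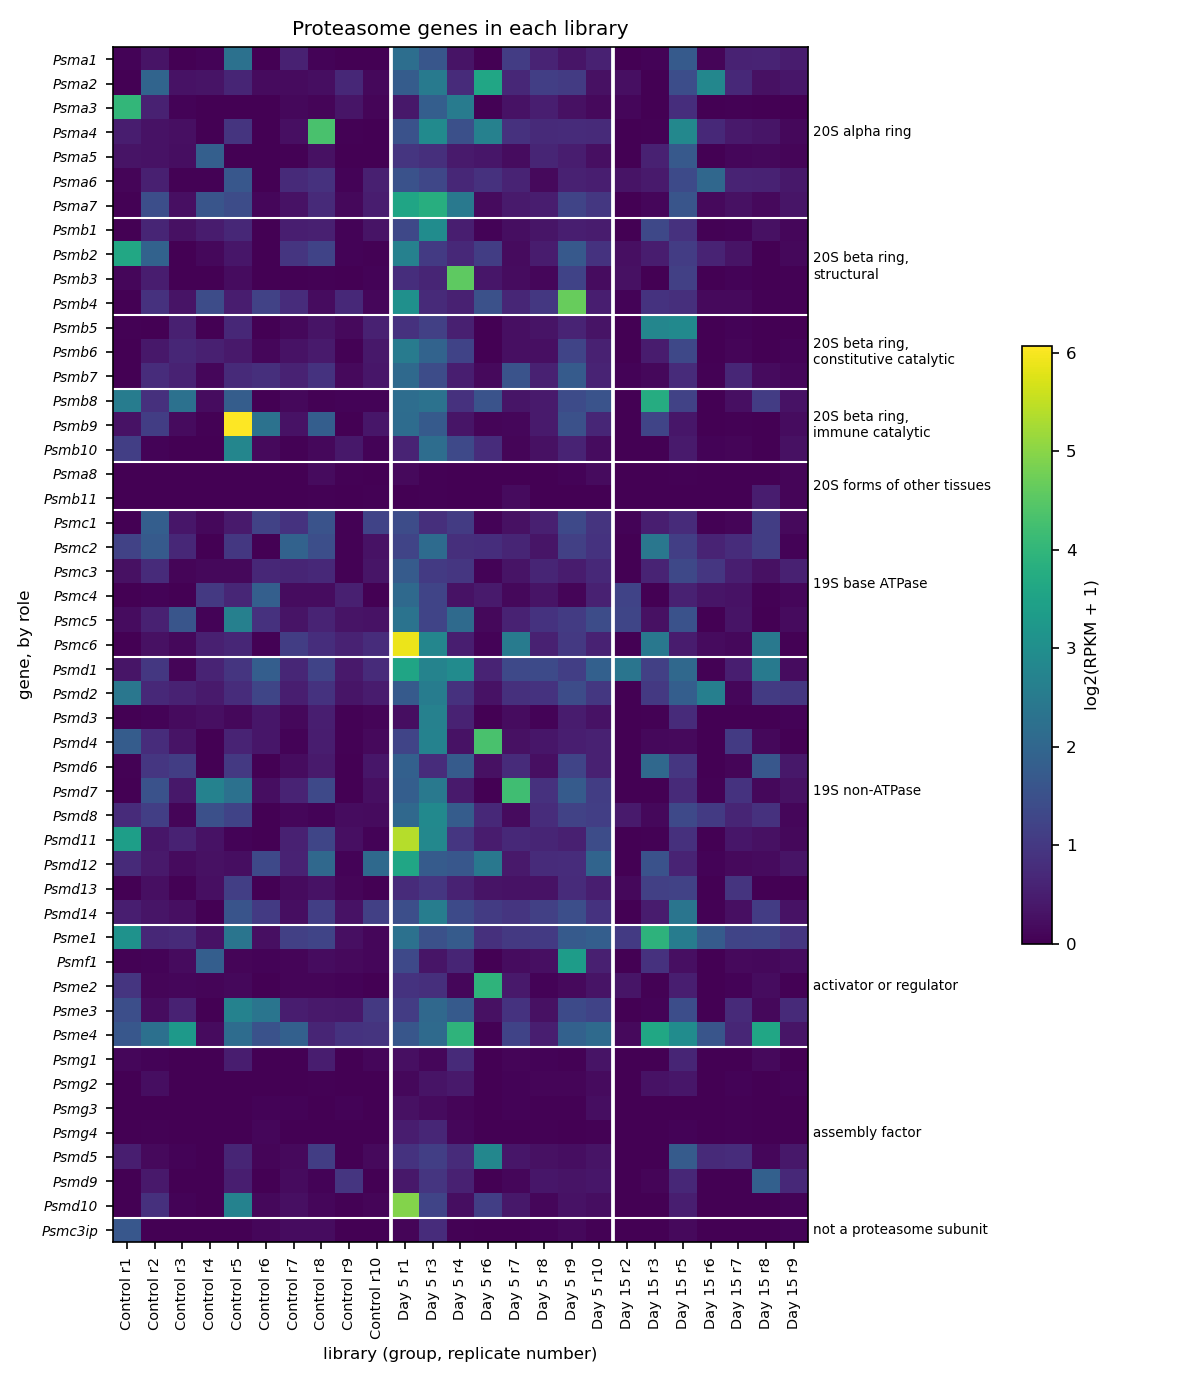
Level of each of the 49 proteasome genes (rows, grouped by role) in each of the 25 libraries (columns, r stands for replicate number) as log2(RPKM + 1), by colour. Isolated bright cells such as Psmb9 in Control replicate 5 (66.1 RPKM) and Psmc6 in Day 5 replicate 1 (57.9 RPKM) stand in rows that are otherwise low, and the columns of Day 5 replicates 1 and 3 are bright in most rows.

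The number of proteasome genes detected varied over libraries of the same group. At 1 RPKM or more there were from 0 to 16 in Control (median 8), from 4 to 33 at Day 5 (median 13.5) and from 0 to 23 at Day 15 (median 6). Day 5 replicates 1 and 3 held 32 and 33, and Control replicate 9 and Day 15 replicate 9 held 0. Genes of any kind at 1 RPKM or more numbered from 1306 to 4320 in Control, from 2353 to 6592 at Day 5 and from 1749 to 5266 at Day 15, and Day 5 replicates 1 and 3 were highest there too, with 5747 and 6592. Summed over the 49 genes, proteasome RPKM had a median of 24.4 in Control (range 7.51 to 126), 74.8 at Day 5 (20.0 to 242) and 23.9 at Day 15 (8.75 to 71.7). As a share of the library's RPKM without Rn45s, the ribosomal RNA precursor, the medians were 0.150%, 0.222% and 0.0798%, with ranges of 0.0689% to 0.371%, 0.0895% to 0.358% and 0.0220% to 0.313%. The groups overlapped in every one of these measures.

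**Figure D2:**
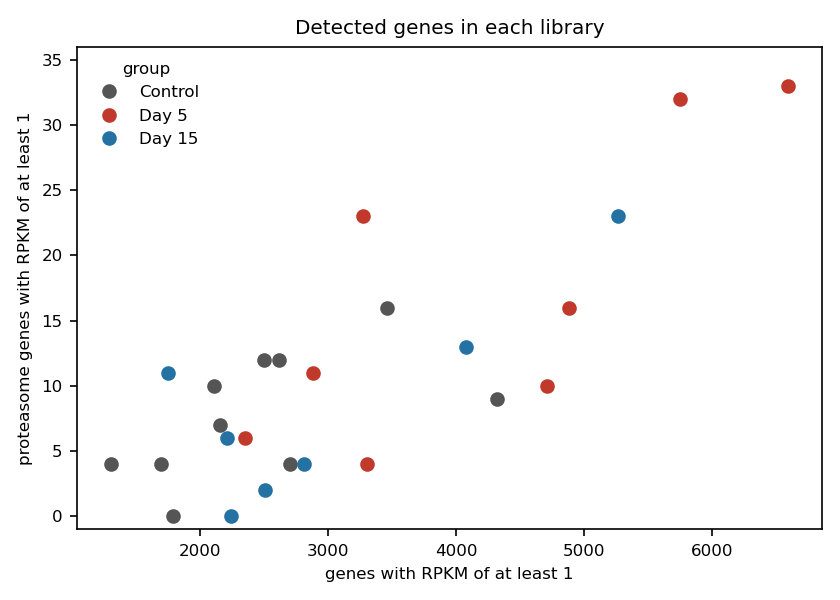
Proteasome genes with an RPKM of at least 1 (vertical axis) against all genes with an RPKM of at least 1 (horizontal axis), 1 point per library coloured by group. Day 5 replicates 1 and 3 are at the upper right with 32 and 33 proteasome genes, and libraries of the 3 groups are mixed from 0 to 23.

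The subunits of the standard core, present in equal numbers in the particle, were not detected in step. Of its 14 alpha and beta subunits, Control libraries held from 0 to 3 at 1 RPKM or more, Day 5 libraries from 0 to 11 and Day 15 libraries from 0 to 10. In Control replicate 8 the highest was Psma4 at 18.9 RPKM while the median of the 14 was 0.302 RPKM. In Day 5 replicate 9 the highest was Psmb4 at 24.2 RPKM and the median 0.875 RPKM. The reads behind each value are unknown.

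The labelled cell type and other cell types were read in the same libraries. The mean log2(RPKM + 1) of 10 OPC markers had means ± SD of 1.20 ± 0.34 in the 10 Control, 1.79 ± 0.56 in the 8 Day 5 and 1.45 ± 0.40 in the 7 Day 15 libraries. That of 8 markers of mature oligodendrocytes was higher in each group, at 4.26 ± 1.00, 3.51 ± 1.07 and 2.94 ± 0.70. The OPC proteoglycan gene Cspg4 was listed at 0 in 3 of 10 Control libraries. Over 12 microglia markers the signal ran from 0.64 to 1.85 in Control, from 2.00 to 4.28 at Day 5 and from 1.71 to 4.02 at Day 15. For 14 markers of macrophages and other leukocytes it ran from 0.10 to 1.76, from 2.23 to 3.90 and from 1.29 to 3.19. At Day 5, 5 of 12 tested microglia markers and 7 of 9 tested macrophage markers rose (limma adjusted p under 0.05), beside 6.04% of all tested genes. At Day 15 0 did, where 0.0926% of all genes passed. The number of all genes called at Day 5 was 261, and 22, 33 and 20 after upper-quartile, sum and quantile scaling. With the count of detected genes as a covariate it was 0, so all these marker calls were lost there. How many marker calls held under the 3 scalings is not given here. The median change of the microglia markers was 1.51 at Day 5 and 1.73 at Day 15, where all 12 were above 0 and 8 had an unadjusted p under 0.05. For all tested genes the medians were 0.61 and 0.17. At Day 15, 62.1% of all tested genes were above 0 and 8.87% had an unadjusted p under 0.05. S100a8, a neutrophil gene, was listed at 0 in 8 Control, 1 Day 5 and 4 Day 15 libraries. Cspg4 and S100a8 are each 1 marker of their list, and such counts for the other markers are not given here. In captured tissue, fewer cells of a type and less RNA per cell cannot be told apart.

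The immune subunits were compared first. Psmb8 ranged in Control from 0.00641 to 4.88 RPKM with a median of 0.129, at Day 5 from 0.271 to 3.92 with a median of 1.76, and at Day 15 from 0 to 12.6 with a median of 0.218. The groups overlapped over most of their range, 5 of 8 Day 5 libraries being at 1 RPKM or more against 3 of 10 Control and 3 of 7 Day 15 libraries. Its log2 change was 0.53 at Day 5 (SE 0.48, 95% interval -0.44 to 1.50, limma adjusted p = 0.500) and 0.14 at Day 15 (SE 0.50, interval -0.86 to 1.15, limma adjusted p = 0.974). Day 15 replicate 3 held the 12.6 RPKM, and the Day 15 change without it was -0.33, and after upper-quartile, sum and quantile scaling it was -0.03, -0.07 and -0.10. After quantile normalization the Day 5 change was -0.14.

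Psmb9 had its highest value in a Control library. Its levels ran from 0.00724 to 66.1 RPKM in Control (median 0.268), from 0.0616 to 3.42 at Day 5 (median 0.463) and from 0 to 1.36 at Day 15 (median 0.0263). The second highest was 3.90 RPKM, also in Control, and the groups overlapped. The log2 change was -0.38 at Day 5 (SE 0.52, interval -1.41 to 0.66, limma adjusted p = 0.665) and -0.98 at Day 15 (SE 0.54, interval -2.06 to 0.10, limma adjusted p = 0.613). Control replicate 5 decided the Day 5 direction, which was 0.16 without it, and the Day 15 change without it was -0.44.

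Psmb10 lay below the filter. It ran from 0.00549 to 5.87 RPKM in Control (median 0.0701), from 0.0625 to 3.51 at Day 5 (median 0.520) and from 0 to 0.358 at Day 15 (median 0.0488). The highest Control value was again in replicate 5, and all 7 Day 15 libraries were under 1 RPKM.

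Their standard counterparts were also under 1 RPKM in most libraries. Psmb5, the chymotrypsin-like subunit that Psmb8 replaces, ran from 0 to 0.601 RPKM in Control (median 0.106), from 0 to 1.21 at Day 5 (median 0.349) and from 0 to 6.31 at Day 15 (median 0.00451). Day 15 replicates 3 and 5, at 5.89 and 6.31 RPKM, stood above all other libraries, and the other 5 of that day were near 0. Psmb6, the caspase-like subunit that Psmb9 replaces, ran from 0 to 0.569 in Control (median 0.313), from 0 to 4.77 at Day 5 (median 0.906) and from 0 to 1.50 at Day 15 (median 0.0411). Psmb7, the trypsin-like subunit that Psmb10 replaces, ran from 0.00257 to 0.863 (median 0.493), from 0.105 to 3.22 (median 1.10) and from 0.0176 to 0.688 (median 0.0984) in the same order. For Psmb6 and Psmb7, 4 of 8 Day 5 libraries were at 1 RPKM or more and 0 of 10 Control libraries, while the remaining Day 5 libraries lay within or near the Control range. Without the filter, Psmb5, Psmb6, Psmb7 and Psmb10 changed at Day 5 by 0.26, 0.68, 0.57 and 0.28 (limma adjusted p from 0.304 to 0.755). From Day 5 to Day 15 they changed by 0.31, -0.72, -0.80 and -0.63 (limma adjusted p from 0.598 to 0.792). In both comparisons Psmb6 and Psmb7 had an unadjusted limma p under 0.05, and Psmb5 and Psmb10 did not. Of all genes in that fit, 13.7% and 8.0% did.

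**Figure D3:**
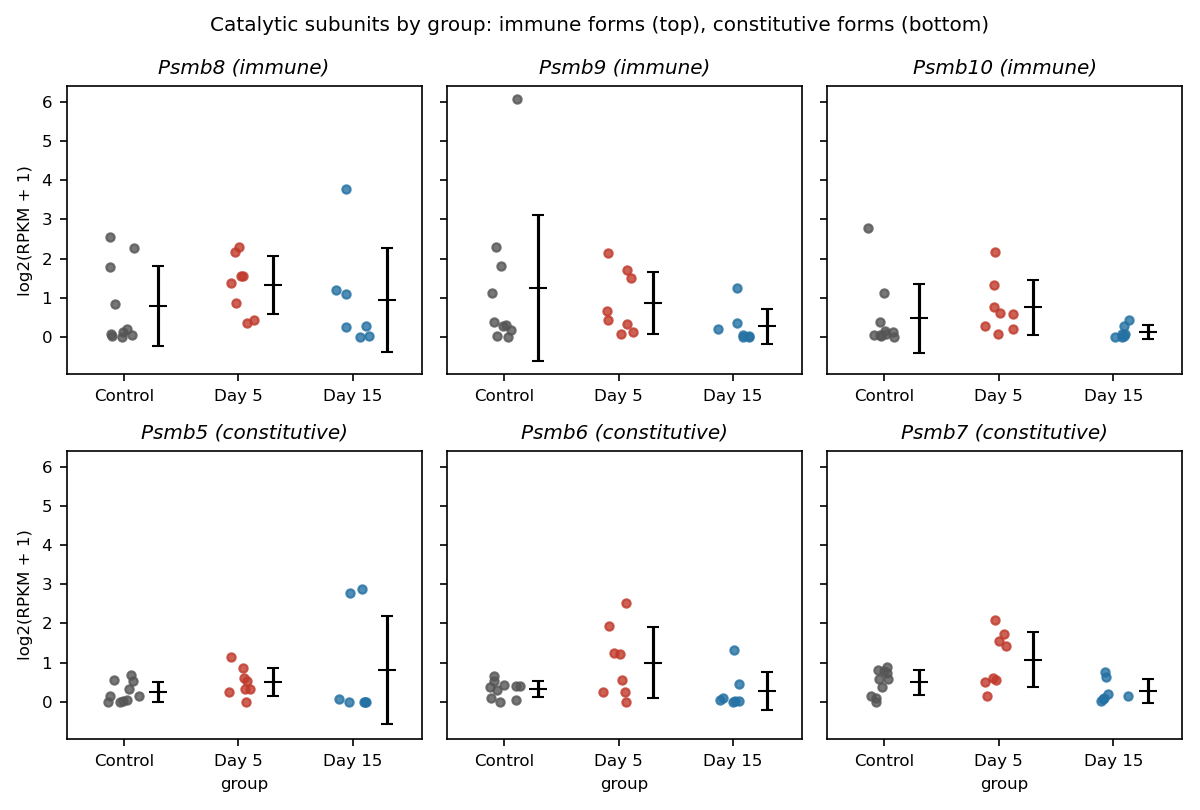
Levels of the immune subunits (top row) and of the standard subunits they replace (bottom row) as log2(RPKM + 1), 1 point per library for 10 Control, 8 Day 5 and 7 Day 15 libraries, with the mean and SD beside the points. The groups overlap in all 6 panels, and the single high point of Psmb9 in Control is replicate 5.

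Regulatory sequence upstream of these genes is shown for members whose windows held a known response element. Promoter windows from RefSeq (build GRCm38.p6, from 250 bases before to 50 after the transcription start, a later build than that of the deposited values) were found for 41 of the 49 genes. Both strands were searched for TGACNNNGC, the core of the antioxidant response element bound by factors such as Nfe2l1, and for the interferon-stimulated response element (GAAA, any 2 bases, GAAA). A window can hold both. The first stood in 6 of 41 proteasome genes (14.6%) and in 14.0% of all 27025 genes with a window, and the second in 5 (12.2%) and 3.99%. In the lines below each motif is in capitals with 10 flanking bases on each side, read along the strand of the gene. They are Psmb5 and Psmb6 of the standard core and the activator subunit Psme1. The first motif also stood in Psmc6, Psmd9, Psmd12 and Psme4, and the second in Psmb3, Psmd4, Psmd9 and Psmg4, genes of several roles.
Psmb5 (chr14:54618024-54618052, minus strand, TGACNNNGC starting 47 bases before the start): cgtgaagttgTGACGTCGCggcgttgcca
Psmb6 (chr11:70525338-70525366, plus strand, TGACNNNGC starting 9 bases before the start): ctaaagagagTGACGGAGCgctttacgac
Psme1 (chr14:55578493-55578522, plus strand, interferon-stimulated response element as its reverse complement 9 bases after the start): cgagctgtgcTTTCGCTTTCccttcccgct
A match describes the letters and not binding.

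Within a library, the immune subunit was set against the standard subunit whose place it takes, as the difference of their log2(RPKM + 1) values. Psmb8 was higher than Psmb5 in 20 of 25 libraries, by a mean ± SD of 0.55 ± 0.98 in Control (n = 10), 0.82 ± 0.58 at Day 5 (n = 8), where all 8 were above 0, and 0.12 ± 0.91 at Day 15 (n = 7). Psmb9 was higher than Psmb6 in 14 of 25 libraries, with means of 0.92 ± 1.86, -0.13 ± 0.38 and -0.01 ± 0.51 in the same order. Psmb10 was higher than Psmb7 in 8 of 25, with means of -0.02 ± 0.93, -0.32 ± 0.98 and -0.15 ± 0.24. Some differences counted as higher were near 0, such as 0.003 for Psmb8 in Control replicate 7 and 0.007 for Psmb9 in Day 15 replicate 8. The gene lengths used are not stated, which limits these counts.

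No pair difference between groups passed at an adjusted p under 0.05. Two-sided exact permutation tests over the 3 pairs and 3 comparisons were adjusted over these 9 (Benjamini-Hochberg). At Day 5 the Psmb8 to Psmb5 difference exceeded that of Control by 0.27 (exact p = 0.500, adjusted p = 0.741), and the Psmb9 and Psmb10 pairs differed from Control by -1.05 (exact p = 0.108, adjusted p = 0.486) and -0.29 (exact p = 0.526, adjusted p = 0.741). The Psmb9 value was -0.53 without Control replicate 5. At Day 15 the values against Control were -0.43, -0.93 and -0.12 (exact p = 0.383, 0.230 and 0.758, adjusted p = 0.741, 0.689 and 0.758), the Psmb9 pair standing at -0.41 without Control replicate 5. The smallest p of the 9 belonged to Psmb8 against Psmb5 at Day 15 minus Day 5, with -0.70 (exact p = 0.0856, adjusted p = 0.486), or -0.40 without Day 15 replicate 5. The microglia and macrophage signals given above did not overlap between Control and Day 5, and their part in the levels of the immune subunits was not tested.

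**Figure D4:**
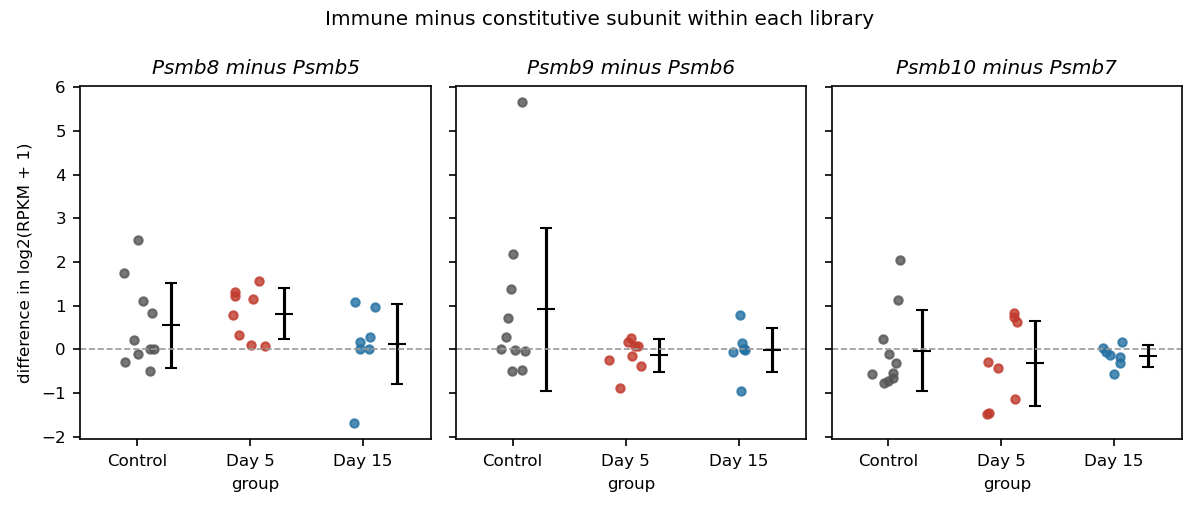
Difference in log2(RPKM + 1) between an immune subunit and the standard subunit it replaces, 1 point per library by group, with the mean and SD beside the points and a dashed line at 0. All 8 Day 5 points of Psmb8 minus Psmb5 are above 0, and the Control mean of Psmb9 minus Psmb6 is raised by 1 point at 5.66.

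The activator subunits Psme1 and Psme2 bind each other in a ring and were unlike in level. Psme1 ran from 0.0739 to 7.48 RPKM in Control (median 0.625), from 0.802 to 3.78 at Day 5 (median 2.05) and from 0.935 to 14.1 at Day 15 (median 1.40). It was at 1 RPKM or more in 4 of 10 Control, 6 of 8 Day 5 and 6 of 7 Day 15 libraries. Its log2 change was 0.47 at Day 5 (SE 0.50, interval -0.52 to 1.47, limma adjusted p = 0.564) and 0.80 at Day 15 (SE 0.52, interval -0.23 to 1.84, limma adjusted p = 0.679), the highest change of any tested proteasome gene at Day 15. It was 0.45 at Day 15 without Day 15 replicate 3, and at Day 5 it was -0.02 after upper-quartile scaling and -0.14 after quantile normalization. Psme2 ran from 0 to 0.907 RPKM in Control (median 0.0536), from 0.0396 to 14.5 at Day 5 (median 0.288) and from 0.00124 to 0.414 at Day 15 (median 0.0345). Outside Day 5 replicate 6 it was under 1 RPKM in every library.

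The comparison of Day 5 with Control asks what the captured cells express early after stroke. Proteasome genes mostly had higher means at Day 5, to about the extent of other genes, and none passed. Of 19 tested with limma, 0 had an adjusted p under 0.05, while 6.04% of all 4319 tested genes did. At an unadjusted p under 0.05 there were 6 (31.6%), beside 26.0% of all genes, and all 6 were higher, beside 25.6%. The ranges of the groups overlapped in all 19, and in 0.533% of all tested genes they did not. Without the filter on low values 0 of 49 passed, beside 0.106% of 22610 genes, and 14 of 49 (28.6%) had an unadjusted p under 0.05, beside 13.7%. The median log2 change of the 19 was 0.52 and that of all tested genes 0.61. Of the 19, 18 had a change above 0 (94.7%), as did 84.9% of all tested genes.

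Psmc6, an ATPase of the cap, had the highest change. It ran from 0 to 1.13 RPKM in Control (median 0.471), from 0.0390 to 57.9 at Day 5 (median 0.751) and from 0 to 4.44 at Day 15 (median 0.131). Only Day 5 replicates 1, 3, 7 and 9 reached 1 RPKM in that group, and the rest lay within the Control range. The change was 1.25 (SE 0.53, limma adjusted p = 0.125) and 0.66 without Day 5 replicate 1. The other 5 with an unadjusted p under 0.05 were Psmd1 at 1.16, the alpha subunits Psma2 at 1.00 and Psma7 at 1.00, and the cap subunits Psmd12 at 0.87 and Psmd8 at 0.82 (limma adjusted p from 0.118 to 0.186). Psmd1 had a mean ± SD of 0.822 ± 0.705 RPKM in Control and 3.82 ± 3.60 RPKM at Day 5, with 7 of 8 Day 5 and 2 of 10 Control libraries at 1 RPKM or more.

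By role, both tested alpha subunits had changes near 1.00, all 7 tested non-ATPase cap subunits had changes from 0.36 to 1.16 with a median of 0.71, and the 4 tested cap ATPases had changes from 0.04 to 1.25. The structural beta subunit Psmb2 had 0.26, and the 3 tested activators had 0.15 to 0.47. The immune subunits Psmb8 and Psmb9 had 0.53 and -0.38, where the median was 0.52 for the 19 tested proteasome genes and 0.61 for all tested genes. Psmb9 was the sole tested proteasome gene below 0, and its change was 0.16 without Control replicate 5.

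Scaling moved these values as it moved all genes. The median change of all tested genes at Day 5 was 0.10 with upper-quartile scaling, 0.15 with equal RPKM sums (Rn45s left out) and -0.02 with quantile normalization. Those of the 19 proteasome genes were 0.03, 0.04 and -0.14 in the same order, with 10, 11 and 9 of the 19 above 0 and 0 at an unadjusted p under 0.05 under each. In a fit that held the count of detected genes as a covariate, the median of the 19 was -0.08, against 0.07 for all genes. Without Day 5 replicate 1 the 6 proteasome genes at an unadjusted p under 0.05 became 1, and without Day 5 replicate 3 they became 2.

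**Figure D5:**
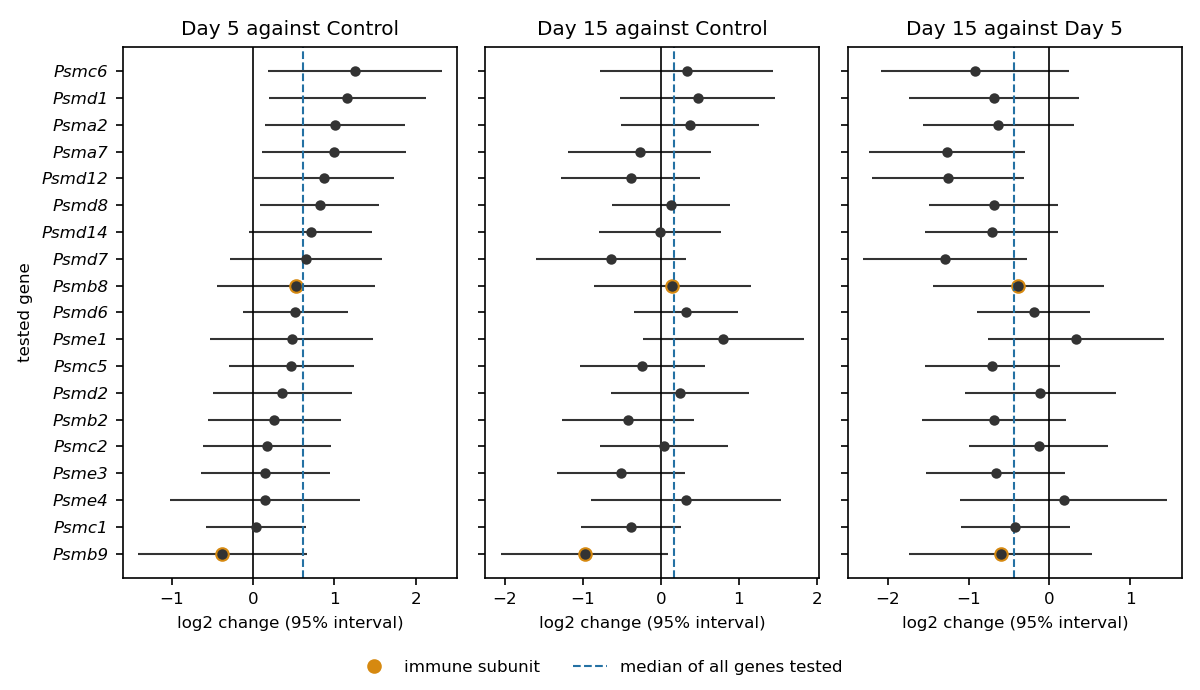
Log2 change with its 95% interval (limma) for the 19 tested proteasome genes in each comparison, with the immune subunits ringed in orange, a solid line at 0 and a dashed line at the median of all 4319 tested genes. At Day 5 most points lie around the dashed line at 0.61, and at Day 15 they lie on both sides of 0.

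Against Control, Day 15 showed no shared displacement. Of the 19 tested genes 0 passed with limma, beside 0.0926% of all tested genes, and 0 had an unadjusted p under 0.05, beside 8.87%. The groups overlapped in all 19, as they did in all but 0.0926% of tested genes. Without the filter 0 of 49 had an adjusted and 0 an unadjusted p under 0.05, beside 0.0% and 3.62% of all genes. The median change was 0.04 (0.17 for all genes), with 10 of 19 above 0. Psme1 at 0.80 and Psmb9 at -0.98 were the extremes. Both comparisons use the same 10 Control libraries, so their values are not independent of each other.

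Between the days, Day 15 stood below Day 5 for most proteasome genes, as for most genes. With limma 0 of 19 passed, and 0.0% of all tested genes did. At an unadjusted p under 0.05 there were 3 (15.8%), beside 14.7% of all genes, all lower, beside 13.9%: Psmd7, a partner of the deubiquitinase, at -1.29, Psma7 at -1.27 and Psmd12 at -1.26 (limma adjusted p from 0.246 to 0.250). The groups overlapped in all 19 (no overlap in 0.301% of all tested genes). Without the filter 0 of 49 passed, beside 0.0%, and 10 (20.4%) had an unadjusted p under 0.05, beside 8.0%. The median change was -0.67 for the 19 and -0.44 for all tested genes, and 17 of 19 were below 0. Psme1 at 0.33 and Psme4 at 0.17 were the 2 above 0. After quantile normalization the median of the 19 was -0.19, with 12 below 0, and that of all tested genes was -0.002. With upper-quartile scaling the 2 medians were -0.28 and -0.12, and with equal sums -0.41 and -0.23. Day 5 held the highest group mean of log2(RPKM + 1) for 16 of the 19 tested proteasome genes (84.2%), as it did for 67.4% of all tested genes.

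Genes that work with the proteasome were read from lists of other pathway members. Over all tested genes at Day 5, 6.04% passed, 26.0% had an unadjusted p under 0.05 and the median change was 0.61. Among proteasome partners and regulators, 0 of 17 tested genes passed at Day 5 (28 of 30 entries in the table), with 4 (23.5%) at an unadjusted p under 0.05 and a median change of 0.59. The smallest p belonged to AI314180, the proteasome scaffold also called Ecm29, at 1.98, Zfand5, a proteasome-stimulating factor, at 1.38 and Zfand2a, a stress-induced proteasome-binding protein, at 1.38 (limma adjusted p = 0.0559, 0.0681 and 0.111). Among ubiquitin and its activating and conjugating enzymes, 0 of 15 passed, 6 (40.0%) had an unadjusted p under 0.05 and the median was 0.80, with the conjugating enzymes Ube2h, Ube2k and Ube2d3 at 1.37, 1.40 and 1.22 (limma adjusted p = 0.0679, 0.0716 and 0.0886).

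MHC class I processing genes, which the immune subunits serve, held 0 of 14 passing at Day 5, 3 (21.4%) at an unadjusted p under 0.05 and a median of 0.60. B2m, the light chain of class I molecules, had 2.21 (limma adjusted p = 0.0667), and the chaperones Pdia3 and Calr had 1.59 and 1.21 (limma adjusted p = 0.0768 and 0.171). Among MHC class II genes 0 of 4 passed and 3 had an unadjusted p under 0.05, with a median of 1.59 and with H2-Aa, Cd74 and H2-Ab1 at 2.26, 2.04 and 1.14 (limma adjusted p = 0.0570, 0.117 and 0.151).

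The mean log2(RPKM + 1) of the interferon-related list ran from 0.18 to 2.54 in Control and from 1.28 to 2.52 at Day 5, so the groups overlapped. Of 31 tested interferon-related genes, 5 rose at Day 5 (16.1%), 0 fell and 26 did not pass, with 13 (41.9%) at an unadjusted p under 0.05 and a median of 0.74. Those that rose were the interferon receptor chains Ifnar2 by 2.64 (SE 0.54, limma adjusted p = 0.00355), Ifngr2 by 2.01 (SE 0.50, limma adjusted p = 0.0140) and Ifnar1 by 1.83 (SE 0.44, limma adjusted p = 0.0123), Irf8, a transcription factor of myeloid cells, by 1.82 (limma adjusted p = 0.0427) and the RNA sensor Ifih1 by 1.78 (limma adjusted p = 0.0371). Ifnar2 had a median of 0.407 RPKM in Control and ran from 1.65 to 42.0 RPKM at Day 5, where all 8 libraries were above 1 RPKM, as were 0 of 10 in Control. All 5 calls were lost with upper-quartile scaling (changes from 1.21 to 2.07, limma adjusted p from 0.0653 to 0.366), with quantile normalization (1.11 to 1.97, limma adjusted p from 0.0705 to 0.407), with detected genes as a covariate (0.85 to 2.61, limma adjusted p from 0.104 to 0.679) and within replicate numbers 1 to 6 or 7 to 10 (1.57 to 2.65, limma adjusted p from 0.0869 to 0.252). With equal sums, and without the filter on low values, only that of Ifnar2 held. The Irf8 call was lost in 12 of 18 fits that left out 1 library (changes from 1.48 to 1.94, limma adjusted p from 0.0518 to 0.117): Day 5 replicates 1, 3, 4 and 10 and Control replicates 1, 3, 4, 6, 7, 8, 9 and 10. That of Ifih1 was lost in 8 (changes from 1.38 to 1.78, limma adjusted p from 0.0501 to 0.0839): Day 5 replicates 4 and 7 and Control replicates 1, 6, 7, 8, 9 and 10. Microglia and macrophage markers rose in the same libraries, and their part in these changes was not tested. Of the 12 genes named from the other 4 lists, 6 passed with a pseudocount of 0.1 (B2m, H2-Aa, Cd74, H2-Ab1, AI314180 and Zfand5, limma adjusted p from 0.0111 to 0.0495). With the replicate number as a block 4 did (H2-Aa, Cd74, H2-Ab1 and AI314180, from 0.0175 to 0.0393), with the number range as a covariate 3 (B2m, H2-Aa and AI314180), at a mean RPKM of at least 5 also 3 (H2-Aa, Cd74 and AI314180), and with the compared groups alone 2 (AI314180 and Zfand5). Leaving out 1 library, 7 of the 12 passed in at least 1 fit (limma adjusted p from 0.0271 to 0.0478): B2m, AI314180, Ube2h and Ube2k without Control replicate 2, H2-Aa and Cd74 without Control replicate 5, Zfand5 and Ube2k without Day 5 replicate 6, H2-Aa and AI314180 without Day 5 replicate 7, H2-Aa and Ube2h without Day 5 replicate 8 and AI314180 without Day 5 replicate 9. At Day 15, 0 tested genes of these 5 lists passed, beside 0.0926% of all tested genes. An unadjusted limma p under 0.05 was found there for 8.87% of all 4319 tested genes. It was found for 1 of 17 partners (5.88%), 0 of 15 ubiquitin genes and 1 of 14 class I genes (7.14%). The same held for 2 of 4 class II genes and 4 of 31 interferon-related genes (12.9%).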

How the data were processed

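Amplification used the Nugen Ovation kit and sequencing gave 100 bp paired ends, per the labels' protocols. CASAVA 1.8.3, STAR 2.1.4a, HTSeq and build mm9 are named in the submitters' processing notes. The authors deposited RPKM. Its scaling and gene lengths are not stated in the sources used here, and with depth unknown no counting interval can be had. Labels tie no library to an animal, so p-values measure the spread between these libraries, which may be technical.

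Genes at 1 RPKM or more in 7 or more libraries were fitted as log2(RPKM + 1) with limma 3.58.1 (R 4.3.3; all 3 groups, intensity trend, robust, two-sided) and Benjamini-Hochberg adjustment over all tested genes. Pair differences used exact permutation tests (Python 3.11.15, numpy 2.4.6). Both were tried on simulated data with a normal spread, where recovery of large shifts and few false calls were required. That does not show how well changes of the size seen here would be found. The members and lists were chosen with earlier results of these data known. By rule, the 6 catalytic subunits, Psme1, Psme2 and the extreme changes are given by library range. Other genes are named for the highest level in a role, the smallest p or as below the filter, and list genes at Day 5 alone. Alternatives were other pseudocounts, filters, scalings, covariates, a replicate block, number ranges 1 to 6 and 7 to 10, and leaving out libraries. One further promoter motif that was searched is not reported here.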

Additional observations from a re-analysis of the deposited data

Results flagged for a closer look

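Among 36 combinations of group and quantity (9 genes and 3 pair differences in 3 groups), 10 held 1 library far from the rest of its group. On the log2(RPKM + 1) scale these were Psmb9 at 6.07 and Psmb10 at 2.78 in Control replicate 5, Psmb8 at 3.76 and Psmb9 at 1.24 in Day 15 replicate 3, Psmb6 at 1.32 in Day 15 replicate 5, Psme2 at 0.93 in Control replicate 1 and at 3.95 in Day 5 replicate 6, and Psmc6 at 5.88 in Day 5 replicate 1. The pair difference Psmb9 minus Psmb6 stood apart at 5.66 in Control replicate 5, and Psmb8 minus Psmb5 at -1.68 in Day 15 replicate 5. Control replicate 5 is thus the library with the highest Psmb9 and the highest Psmb10 of all 25. The combinations are not independent, as the pair differences reuse values of the catalytic subunits, and no rate over all genes is given.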

How the results depend on the processing

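Across all fits run, 0 proteasome genes passed in any comparison, the lowest limma adjusted p being 0.0628 at Day 5 (Psma2 without Control replicate 2), 0.362 at Day 15 and 0.132 between the days. No pair difference passed in 222 refits. Within numbers 7 to 10 Psmb8 against Psmb5 stood at 0.77 at Day 5 and 0.74 at Day 15, each at the smallest exact permutation p these few libraries allow (0.0286, adjusted 0.129), so not passing there shows no stability. A mean RPKM of at least 5 left no proteasome gene to test. The count of all genes called at Day 5 was 261, and 553 with a pseudocount of 0.1, 24 without the filter, 119 at a mean RPKM of at least 5, 22 after upper-quartile, 33 after sum and 20 after quantile scaling, 0 with detected genes and 398 with the number range as a covariate, 4 and 4 within numbers 1 to 6 and 7 to 10, and 96 to 418 leaving out 1 library. At Day 15 it was 4, and in the same order 38, 0, 11, 9, 1 and 4, 1 and 5, 0 and 0, and 0 to 6, with 2 from the compared groups alone. Between the days it was 0, and 0 to 8 leaving out 1 library.

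With the replicate number as a block, 499, 4 and 0 genes passed. Same-numbered libraries correlated from -0.06 to 0.08 in 20 pairs, as deviations from their group means. In 6 of 40 searches the best match of a library in another group bore its own number. The labels do not say what a shared number means, and these values cannot decide it. Leaving out Day 5 replicate 4 and Day 15 replicates 5 and 6, which an earlier analysis of these data named as alike, gave 238, 4 and 0. Over the 4319 tested genes their 3 pairs correlated at 0.20 to 0.43. The other 297 pairs of libraries correlated at 0.16 to 0.42, with a median of 0.26. The highest of the 3 pairs, at 0.4251, was just above the highest of the others, at 0.4248. Such overlapping ranges do not decide whether these libraries are alike.

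Changes that turned sign at Day 5 were Psmb8 at -0.14 (quantile) and -0.10 (detected genes), Psme1 at -0.018 (upper quartile), -0.14 (quantile) and -0.19 (detected genes), Psma7 at -0.095 (detected genes), and Psmb9 at 0.052 and Psmd12 at -0.21 (both within 7 to 10). Leaving out 1 library gave Psmb9 from -0.56 to 0.16. At Day 15 Psmb8 was at -0.028, -0.071 and -0.10 under the 3 scalings, -0.040 with detected genes and -0.037 within 1 to 6, and from -0.33 to 0.34 leaving out 1 library. Between the days Psmb8 was at 0.043 (quantile) and 0.061 (detected genes), and Psme1 at -0.23 within 7 to 10 and from -0.023 to 0.47 leaving out 1 library. Pair differences turned at Day 15 for Psmb8 (0.74 within 7 to 10) and Psmb10 (0.0060 with equal sums, 0.17 within 7 to 10, -0.21 to 0.11 leaving out 1 library), and between the days for Psmb9 (-0.059 within 7 to 10, -0.013 to 0.28 leaving out 1 library) and Psmb10 (-0.30 within 1 to 6). The cause was not tested. Unknown depth and the many values near 0 limit what these libraries can show for transcripts this low.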
